A study of Mus musculus with 6 samples.

Results

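Transcripts of 8 enzymes that degrade tyrosine and tryptophan were compared between livers of mice in which an adenoviral vector was used to overexpress TFEB and livers that were not injected. The genes were chosen by symbol in the annotation of the array as enzymes of aromatic amino acid catabolism: Tat, Hpd, Hgd, Gstz1 and Fah act on tyrosine, and Tdo2, Kmo and Haao act on tryptophan. All 8 were among the 12393 genes measured, with 9 of the 20380 probe sets that carry 1 gene symbol. A probe set is a group of short oligonucleotides that together report 1 transcript, and Tdo2 had 2 of them.

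All mice were wild-type C57 animals of 1 month. The TFEB-injected group held 3 livers and the not-injected group 3, with 1 Affymetrix array for each animal. TFEB is known to activate genes of lysosomes and autophagy. No group received an empty vector, and effects of TFEB, of the vector and of the injection procedure cannot be told apart. The labels give neither the promoter of the vector, nor the sex of the mice, nor their feeding state.

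The liver is the main site where aromatic amino acids are broken down. Tyrosine is converted by 5 enzymes in sequence to fumarate and acetoacetate, and an inherited loss of the last of them, fumarylacetoacetase, causes liver failure in humans because reactive intermediates build up. Tryptophan enters the kynurenine pathway, which ends in complete oxidation or in the synthesis of the cofactor NAD. The aminotransferase of tyrosine and the dioxygenase of tryptophan are textbook examples of liver enzymes induced by glucocorticoids and by fasting.

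Values are on the log2 scale of RMA, a method that equalises the arrays and summarises the probes of a set, so a difference of 1 is a 2-fold change. A gene with several probe sets is given by the one with the highest mean. Calls were made by limma where the p-value, adjusted by the Benjamini-Hochberg method over all genes, was under 0.05. Of the 8 enzymes 7 were called lower in injected livers, 0 were called higher and 1 did not pass. Among all genes 28.1% were called, 13.9% lower and 14.2% higher. The 8 enzymes were chosen with earlier results of these data known, so the shares in this paragraph are descriptive and not a test. In the same 7 every injected liver lay below every liver that was not injected, which held for 26.1% of all genes. A fall of 1.5-fold or more was seen in 3 enzymes, Tat, Kmo and Haao, against 3.3% of all genes. The median difference was -0.33 over the 8 enzymes and -0.05 over all genes. The lowest value of any of their probe sets was 11.0, above the upper quartile of every array (8.94 to 9.05), so none lay in the compressed low range. Whether the brightest probe sets were compressed at the top of the scale was not tested.

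Some measures of the arrays moved with the injection. The 24 poly-A spike-in probe sets had a median difference of -0.44 and the 18 hybridisation spike-ins of -0.32. The groups did not overlap, with lower values after injection, in 23 of the poly-A and all 18 hybridisation spike-ins. The same separation was seen in 7 of the 8 enzymes. Of the 8 enzymes 3 and 4 lay below these medians. Hpd (-0.15), Hgd (-0.24), Fah (-0.28) and the brighter probe set of Tdo2 (-0.29) differed by less than both medians. The other probe set of Tdo2, at -0.73, differed by more than both. The 3' minus 5' signal of Gapdh was 0.29 to 0.39 in livers that were not injected and 0.17 to 0.27 in injected livers, whereas that of Actb overlapped between the groups (1.29 to 1.40 and 1.26 to 1.49). Array correlations within groups were at least 0.997 without injection and 0.992 with it. The part of these measures in the differences was not tested. The probe set of Tfeb itself read 7.52 ± 0.06 (SD, n = 3) without injection and 7.58 ± 0.18 with it, and whether its probes detect the transgene is not known here.

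**Figure D1:**
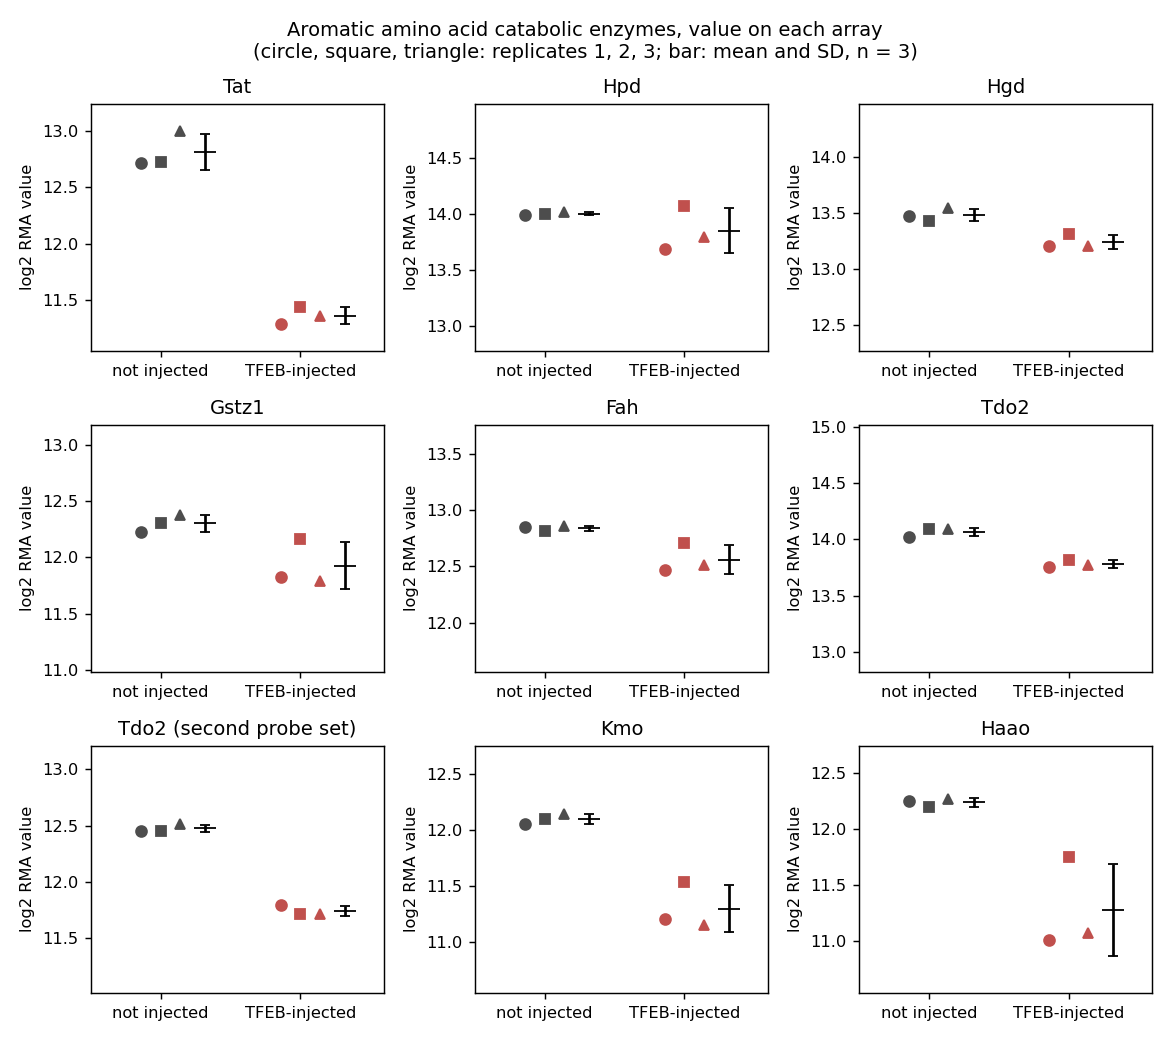
Log2 RMA value of each array for the 9 probe sets of the 8 enzymes, with not-injected livers in grey and TFEB-injected livers in red; circles, squares and triangles are replicates 1, 2 and 3, and the bar is the mean with its SD (n = 3). All panels span the same range of log2 units. The groups are apart in 8 of 9 panels and overlap in that of Hpd, where injected replicate 2 reads 14.07.

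Tyrosine aminotransferase, encoded by Tat, takes the amino group from tyrosine in the first and usually rate-limiting step of the pathway. It had the largest difference of the 8. Tat (probe set 1451557_at) read 12.72, 12.73 and 13.00 in the livers that were not injected and 11.29, 11.44 and 11.36 in the injected livers. The groups were far apart, and the highest value of all was not-injected replicate 3. Tat was 2.74-fold lower (-1.45 ± 0.10, SE; limma adjusted p = 0.000123). By size of fall it ranked 48 among all genes. The call held in all 15 alternative analyses, with differences from -1.52 to -1.36.

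The 250 bases before the annotated start of Tat that was used (RefSeq, GRCm38.p6, plus strand, chr8:109990186-109990435) are shown because Tat fell most. They lie inside the RefSeq span of the gene, which begins at 109986078. Capitals mark the pentamer CCAAT or its complement, which is found in promoters of many genes.
Tat: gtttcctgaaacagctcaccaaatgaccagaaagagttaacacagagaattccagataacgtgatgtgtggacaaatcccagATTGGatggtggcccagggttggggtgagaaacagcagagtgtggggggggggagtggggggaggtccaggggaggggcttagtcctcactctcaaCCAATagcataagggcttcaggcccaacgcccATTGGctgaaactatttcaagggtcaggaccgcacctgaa
The CACGTG core of the E-box, known as a TFEB binding sequence, was searched on both strands in windows from 250 bases before to 50 after the start. All 8 genes were matched in the RefSeq table, with 9 windows because Gstz1 has 2. The windows of Tat, Hgd and Haao and the downstream window of Gstz1 lie inside the annotated span of the gene. For Tat, Hgd and Haao the bases before that span were not searched. CACGTG was in 0 of 9 windows and in 7.15% of all 32851 windows. CCAAT was in 5 of 9 windows, those of Tat, Hgd, Tdo2 and both of Gstz1, and in 37.4% of all. Each match, or lack of one, describes only the letters of these windows.

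The next 4 enzymes of the tyrosine pathway differed by less than Tat. 4-hydroxyphenylpyruvate dioxygenase, encoded by Hpd, makes homogentisate. Hpd (1424618_at) read 13.99, 14.00 and 14.02 without injection and 13.69, 14.07 and 13.79 with it. Injected replicates 1 and 3 lay below the control livers and injected replicate 2 above them. The difference of -0.15 ± 0.10 did not pass (limma adjusted p = 0.303), and its 95% interval ran from -0.39 to 0.09. Without injected replicate 2 it was -0.26 and passed (limma adjusted p = 0.0233).

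Homogentisate 1,2-dioxygenase, encoded by Hgd, opens the aromatic ring. Hgd (1452986_at) read 13.48, 13.43 and 13.54 without injection against 13.20, 13.32 and 13.21 with it. The groups did not overlap, and Hgd was 1.18-fold lower (-0.24 ± 0.07, limma adjusted p = 0.0338). Maleylacetoacetate isomerase is the product of Gstz1, a member of the glutathione transferase family. Gstz1 (1427552_a_at) read 12.23, 12.31 and 12.38 without injection and 11.82, 12.17 and 11.79 with it. Injected replicate 2 was closest to the controls, and Gstz1 was 1.30-fold lower (-0.38 ± 0.11, limma adjusted p = 0.0381). Fumarylacetoacetase, encoded by Fah, splits the last intermediate. Fah (1417220_at) read 12.85, 12.81 and 12.86 without injection and 12.47, 12.71 and 12.51 with it. Again injected replicate 2 was closest to the controls, and Fah was 1.21-fold lower (-0.28 ± 0.08, limma adjusted p = 0.0363). These 3 calls were close to the threshold. Each was lost when any single array other than injected replicate 2 was left out, with limma adjusted p-values of 0.068 to 0.12 for Hgd, 0.0643 to 0.122 for Gstz1 and 0.086 to 0.117 for Fah. They were also lost without variance moderation, which shares the spread between genes. All 3 differences stayed below 0 in every alternative.

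Tryptophan 2,3-dioxygenase, encoded by Tdo2, opens the indole ring of tryptophan and controls its entry into the kynurenine pathway in hepatocytes. Its brighter probe set (1419093_at) read 14.03, 14.09 and 14.09 without injection and 13.75, 13.82 and 13.77 with it. The groups were apart and the spread within each was small. Tdo2 was 1.22-fold lower by this probe set (-0.29 ± 0.06, limma adjusted p = 0.0124). The call was lost without not-injected replicate 2 (adjusted p = 0.051) or 3 (adjusted p = 0.0535).

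The other probe set of Tdo2 (1449337_at) gave a larger difference in the same direction. It read 12.46, 12.46 and 12.51 without injection and 11.80, 11.71 and 11.72 with it. That is 1.66-fold lower (-0.73 ± 0.06, limma adjusted p = 0.000372 over all probe sets, where 13.1% were called lower), and the call held in all alternatives run for it. Within each array the first probe set lay 1.57 to 1.63 above the second without injection and 1.96 to 2.11 above it with injection. This gap was 0.45 wider in injected livers (two-sided exact permutation p = 0.1, the smallest that 20 assignments allow). The size of the fall in Tdo2 therefore depends on the probe set, and the mean of both gave -0.51.

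Kynurenine 3-monooxygenase, encoded by Kmo, is a flavoenzyme of the outer mitochondrial membrane that makes 3-hydroxykynurenine. Kmo (1418998_at) read 12.05, 12.10 and 12.14 without injection and 11.20, 11.54 and 11.16 with it. The groups were well apart, with injected replicate 2 the highest of its group. Kmo was 1.74-fold lower (-0.80 ± 0.11, limma adjusted p = 0.00211), and the call held in all 15 alternatives.

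3-hydroxyanthranilate 3,4-dioxygenase, encoded by Haao, makes the precursor of quinolinate and so of NAD. Haao (1432492_a_at) read 12.24, 12.19 and 12.27 without injection and 11.01, 11.75 and 11.07 with it. Every injected liver was below every control liver, but injected replicate 2 stood apart from the other 2. Haao was 1.94-fold lower (-0.96 ± 0.18, limma adjusted p = 0.00847). Without injected replicate 2 the difference was -1.19. The call was lost without variance moderation (adjusted p = 0.0719) and in no other alternative.

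Upstream sequences of these 3 genes are shown beside that of Tat, each the 250 bases before the annotated start, from RefSeq and GRCm38.p6. They are at chr3:81975729-81975978 (minus strand) for Tdo2, chr1:175631943-175632192 (plus strand) for Kmo and chr17:83846791-83847040 (minus strand) for Haao. Capitals mark CCAAT or its complement and TATAAA in Tdo2, the latter at -229 to -224 from the start, and TGTTCT, 1 arm of the glucocorticoid response element, in Haao.
Tdo2: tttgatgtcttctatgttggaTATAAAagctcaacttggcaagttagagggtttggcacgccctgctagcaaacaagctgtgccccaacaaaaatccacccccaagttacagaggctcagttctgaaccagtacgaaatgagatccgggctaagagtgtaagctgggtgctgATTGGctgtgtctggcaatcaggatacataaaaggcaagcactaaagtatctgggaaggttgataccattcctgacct
Kmo: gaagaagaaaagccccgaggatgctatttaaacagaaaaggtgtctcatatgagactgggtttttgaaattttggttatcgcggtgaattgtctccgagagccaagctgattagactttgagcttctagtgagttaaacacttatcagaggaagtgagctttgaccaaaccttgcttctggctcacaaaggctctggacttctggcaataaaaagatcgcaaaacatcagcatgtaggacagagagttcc
Haao: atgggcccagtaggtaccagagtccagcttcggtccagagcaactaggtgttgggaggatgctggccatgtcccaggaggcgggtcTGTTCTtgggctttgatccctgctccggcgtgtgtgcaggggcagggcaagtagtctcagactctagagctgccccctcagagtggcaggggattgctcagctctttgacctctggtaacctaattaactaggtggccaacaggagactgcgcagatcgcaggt
TGTTCT was in 2 of 9 windows, those of Haao and Kmo, and in 19% of all windows. In Kmo it lay after the start and outside the stretch shown. TATAAA was in 2 of 9, Hgd and Tdo2, and in 13.6% of all.

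**Figure D2:**
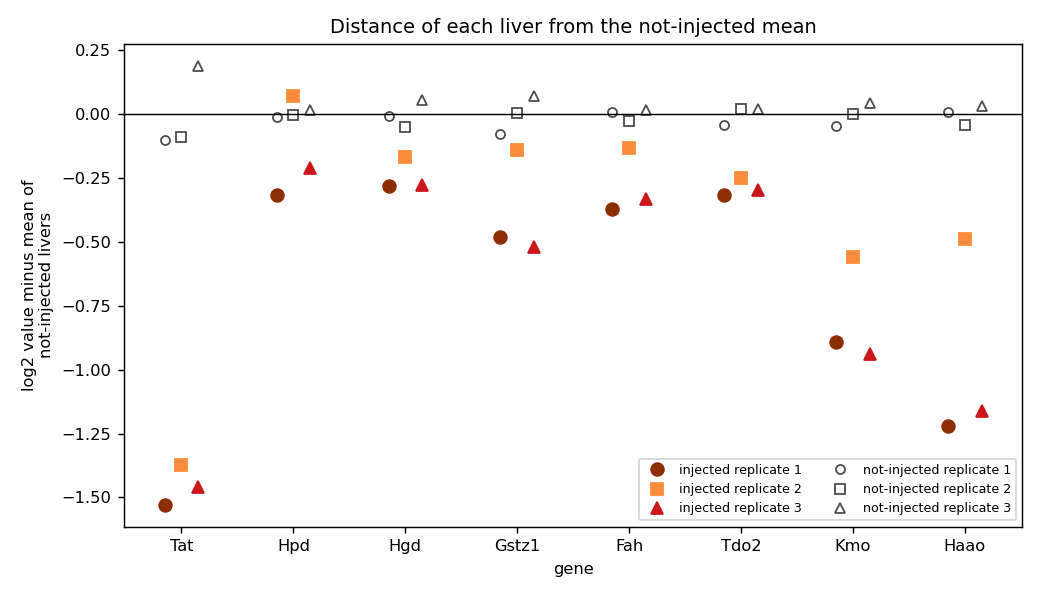
Log2 value of each liver minus the mean of the 3 not-injected livers, for each of the 8 enzymes; filled symbols are injected and open symbols not-injected livers, with 1 symbol shape per replicate number. Injected replicate 2 is the highest injected liver for all 8 genes, and the gap is widest for Haao, where it lies at -0.49.

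The injected livers were not alike. Replicate 2 was the highest of the 3 injected livers in all 8 genes, which include Hpd, a gene not called. Among the 1721 genes called lower this held for 1027 (59.7%), and the share over all genes was not counted. For Haao it lay 0.49 below the control mean while the other injected livers averaged 1.19 below it. For Kmo the same distances were 0.56 and 0.92, and for Gstz1 0.14 and 0.50. For Tat they were nearly equal, at 1.37 and 1.49. In the second probe set of Tdo2 injected replicate 2 was instead the lowest. Without this liver all 8 enzymes were called lower, and without any other single array 3 or 4 of them were. The number of all genes called also changed widely when 1 array was left out, as the last paragraph gives.

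The other genes of phenylalanine and tyrosine metabolism did not share 1 direction. Of 12 measured genes, 3 were called higher, 2 were called lower and 7 did not pass, with a median difference of -0.02. The higher genes were Mif, a cytokine with tautomerase activity on phenylpyruvate (0.60 ± 0.08, limma adjusted p = 0.00211), Pts, which makes the pterin cofactor of phenylalanine hydroxylation (0.45 ± 0.07, adjusted p = 0.00415), and Gch1, the first enzyme of that synthesis (0.31 ± 0.09, adjusted p = 0.0371). With the mean of its probe sets Gch1 read 0.03 and did not pass. The lower genes were Qdpr, which regenerates the cofactor (-0.26 ± 0.08, adjusted p = 0.0427), and Ddc, a decarboxylase of aromatic amino acids (-0.25 ± 0.08, adjusted p = 0.0484). Both of these calls were lost when any single array other than injected replicate 2 was left out. The call of Gch1 was lost without not-injected replicate 2 or 3 or injected replicate 1 or 3. Among genes that did not pass, the aspartate aminotransferases Got1 and Got2 read 0.67 and -0.17, the pterin dehydratases Pcbd1 and Pcbd2 -0.01 and 0.17, the sepiapterin reductase Spr -0.09, the co-chaperone Dnajc12 -0.04 and the amino acid oxidase Il4i1 -0.34. Got1 passed without not-injected replicate 1 (0.89) and with array weights.

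More of the other tryptophan genes were lower. Of 9 measured, 5 were called lower, 0 higher and 4 did not pass, and their median was -0.34. Kyat3, a kynurenine aminotransferase, read 12.26, 12.27 and 12.30 without injection and 11.49, 11.66 and 11.47 with it (-0.74 ± 0.07, limma adjusted p = 0.000671). Afmid, the formamidase that follows the dioxygenase step, fell by 0.91 ± 0.14 (adjusted p = 0.0036). Ido2, a second dioxygenase of tryptophan, fell by 0.94 ± 0.16 (adjusted p = 0.00487), and Aadat, another aminotransferase of kynurenine, by 0.70 ± 0.13 (adjusted p = 0.0066). The calls of Ido2 and Aadat were lost without variance moderation. Tph1, the hydroxylase of serotonin synthesis, was called lower (-0.34 ± 0.08, adjusted p = 0.0151) but read below the lower quartile on all arrays (at least 5.46), and its call was lost without not-injected replicate 2 or 3 or injected replicate 3. The other 4 did not pass. Kynu, which cleaves 3-hydroxykynurenine, read 0.48 ± 0.16 (adjusted p = 0.0627), Qprt, which makes the NAD precursor from quinolinate, 0.16 ± 0.06 (adjusted p = 0.08), the glutaryl-CoA dehydrogenase Gcdh -0.14 and the interferon-induced dioxygenase Ido1 0.07, the last below the lower quartile like Tph1. Without injected replicate 2 Kynu passed as higher and Gcdh as lower. Qprt passed without variance moderation and when genes under the median level were left out.

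**Figure D3:**
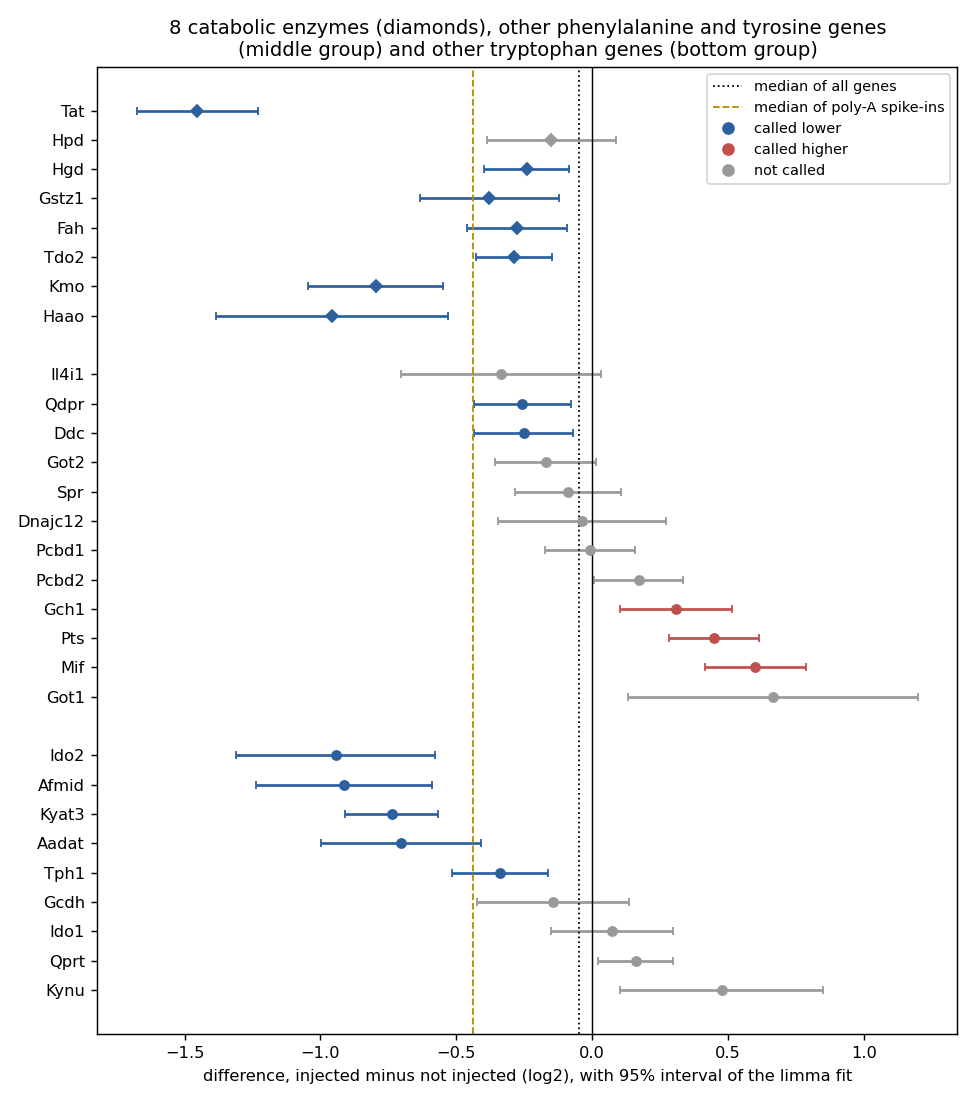
Difference between injected and not-injected livers in log2 units, with the 95% interval of the limma fit, for the 8 enzymes (diamonds, in pathway order) and 21 other genes of phenylalanine, tyrosine and tryptophan metabolism (circles). Blue marks genes called lower, red genes called higher and grey genes not called; the dotted line is the median of all genes (-0.05) and the dashed line that of the poly-A spike-ins (-0.44). Tat lies furthest to the left, and Kmo, Haao, Ido2, Afmid, Kyat3 and Aadat also lie to the left of the dashed line.

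NAD can also be made from nicotinamide. Of 8 measured genes of NAD and nicotinamide metabolism, 2 were called higher, 1 was called lower and 5 did not pass, with a median of 0.07. Nampt, the rate-limiting enzyme of the salvage route, rose by 0.96 ± 0.09 (limma adjusted p = 0.000457) and Nmnat3, which makes mitochondrial NAD, by 0.54 ± 0.10 (adjusted p = 0.00683). Aox1, an oxidase that acts on nicotinamide derivatives, fell by 1.21 ± 0.10 (adjusted p = 0.000278).

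Amino acid catabolism outside the aromatic pathways was lower in part. Of 46 measured genes 19 were called lower, 3 higher and 24 did not pass, with a median of -0.20. The groups did not overlap in 23 of the 46 with injected livers lower, and in 8 with injected livers higher. Among all 12393 genes this held for 3239 and 2492. The lower genes with the smallest p were Cbs of transsulfuration (-0.95 ± 0.07), glutamate dehydrogenase, encoded by Glud1 (-0.71 ± 0.07), the serine hydroxymethyltransferase Shmt1 (-0.75 ± 0.10) and the dimethylglycine dehydrogenase Dmgdh (-0.73 ± 0.10), with limma adjusted p-values of 0.000234 to 0.00221. The higher genes were Aspa, which hydrolyses N-acetylaspartate (0.72 ± 0.13), Bckdhb of branched-chain catabolism (0.29 ± 0.07) and the alanine aminotransferase Gpt2 (0.33 ± 0.09). The call of Bckdhb was lost without not-injected replicate 2 or injected replicate 1, and that of Gpt2 without not-injected replicate 1 or 2 or injected replicate 1 or 3. The count of lower genes was 12 without not-injected replicate 2 or 3 or injected replicate 3 and 24 without injected replicate 2.

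**Figure D4:**
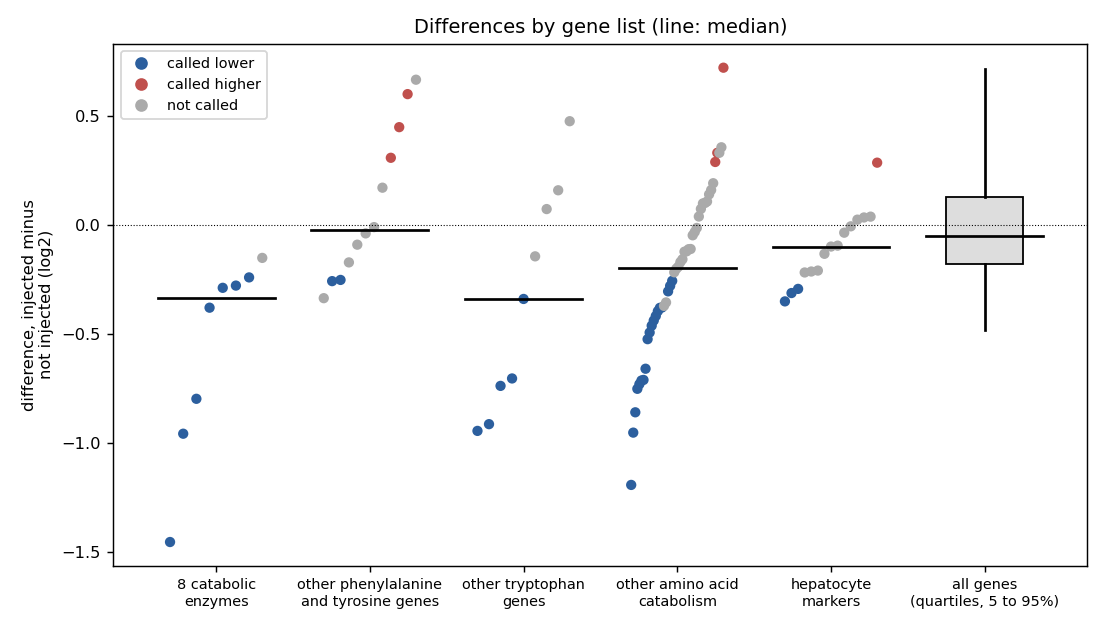
Difference between injected and not-injected livers in log2 units for each gene of 5 lists (points, with a line at the median) and for all genes (box of quartiles, line at the median, whiskers from the 5th to the 95th percentile). The 8 enzymes and the other tryptophan genes have medians of -0.33 and -0.34, the hepatocyte markers of -0.10 and all genes of -0.05.

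Regulators of these genes in hepatocytes moved both ways. Of 12 measured, 4 were called lower, 3 higher and 5 did not pass, with a median of -0.27. The glucocorticoid receptor gene Nr3c1 read 10.36, 10.32 and 10.42 without injection and 10.02, 10.16 and 9.87 with it (-0.35 ± 0.08, limma adjusted p = 0.0205). Its call was lost when any single array other than injected replicate 2 was left out. Cebpa, a factor of hepatocyte metabolism, fell by 0.53 ± 0.12 (adjusted p = 0.0152) and Cebpb, a related factor induced by hormones, rose by 0.35 ± 0.07 (adjusted p = 0.00959). The call of Cebpa was lost without not-injected replicate 2 or 3, which left 2 lower regulators each time. The nuclear receptor Nr1i3 fell by 1.07 ± 0.20 and the forkhead factor Foxa3 by 0.82 ± 0.17. Foxa2 was called higher (0.32 ± 0.10, adjusted p = 0.0479), a call kept in 5 of 15 alternatives. Ppargc1a, a coactivator induced by fasting, rose by 2.24 ± 0.15. Hnf4a, a nuclear receptor that defines hepatocytes, read -0.21 ± 0.09 and did not pass (adjusted p = 0.112), but passed without injected replicate 2 and with array weights.

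Genes known to respond to glucocorticoids were divided as well. Of 19 measured, 6 were called higher, 5 lower and 8 did not pass, with a median of 0.22. The metallothioneins Mt1 and Mt2 rose by 4.49 ± 0.24 and 3.62 ± 0.38. The other higher genes were the transcription factor Zbtb16 (1.58), the phosphatidate phosphatase Lpin1 (1.27), Angptl4, an inhibitor of lipoprotein lipase (1.05), and the receptor tyrosine kinase Mertk (0.48). The call of Lpin1 was lost without not-injected replicate 2. Sizes varied over the alternatives, from 2.18 to 4.77 for Mt1 and from 3.30 to 4.09 for Mt2. Zbtb16 ran from 0.94 to 1.75 and Angptl4 from 0.54 to 1.23. With the mean of all probe sets the median of the list was 0.08. Glucose-6-phosphatase, encoded by G6pc, fell by 1.74 ± 0.13. The other lower genes were Pck1 of gluconeogenesis (-1.14), arginase, encoded by Arg1 (-0.71), Hsd11b1, which reactivates glucocorticoids (-0.89), and Tsc22d3. The call of Hsd11b1 was lost without not-injected replicate 2 or 3 or injected replicate 1 or 3. The 3 genes of the whole array whose 6 values followed Tat most closely, after the not-injected mean of each gene was subtracted, were Slc22a30, of the organic ion transporter family, Srebf1, a factor of lipid synthesis, and Tsc22d3, a glucocorticoid-induced leucine zipper protein. Their root-mean-square distances to Tat over the 6 arrays were 0.09, 0.12 and 0.12 in log2 units. Tsc22d3 read 11.15, 11.18 and 11.67 without injection and 9.85, 10.06 and 10.09 with it, a fall of 1.34 ± 0.15 (limma adjusted p = 0.000993). Slc22a30 fell by 1.48 ± 0.09 and Srebf1 by 1.32 ± 0.12.

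The tissue label was checked with markers. All 15 measured hepatocyte markers lay above the upper quartile of every array, and their summed level was 18.25 to 18.26 in livers that were not injected and 18.15 to 18.20 in injected livers, on the log2 scale. Of them 3 were called lower (F2, Ambp and Fga, by 0.29 to 0.35), 1 was called higher (Apob) and 11 did not pass. The groups did not overlap in 10 of the 15 with injected livers lower, and in 3 with injected livers higher. Among all 12393 genes this held for 3239 and 2492. Called lower were 5 hepatocyte markers with an intensity trend in the variance moderation, and 5 without moderation. The call of Fga was lost without not-injected replicate 3, and that of Apob without not-injected replicate 1 or 3 or injected replicate 1 or 3. The summed level of the 8 enzymes was 16.14 to 16.22 without injection and 15.68 to 15.93 with it. In whole liver, fewer cells of a type and less RNA per cell cannot be told apart. Of 12 Kupffer cell and macrophage markers 3 were higher (Lyz2, Cd68 and Cd5l) and 2 lower (Cd163 and Marco), with summed levels of 13.32 to 13.71 and 13.69 to 13.90. The call of Cd5l was lost without not-injected replicate 2, and 6 of these markers were higher without not-injected replicate 1. The call of Marco was lost when any single array other than injected replicate 2 was left out. Of 12 endothelial markers 6 were higher (Lyve1, Stab2 and Flt4 among them) and 0 lower, with summed levels of 12.66 to 12.82 and 13.12 to 13.32. The calls of Pecam1 and Clec4g were lost without not-injected replicate 2 or 3 or injected replicate 1. That of Pecam1 was also lost without injected replicate 3, and that of Clec4g without injected replicate 2. Without variance moderation 3 endothelial markers were higher. Eng passed as lower and Dpp4 as higher when genes under the median level were left out. Of 11 stellate cell markers 0 were higher and 2 lower (Ecm1 and Reln; the call of Reln was lost without not-injected replicate 2 or 3 or injected replicate 2 or 3), with 12.79 to 12.89 and 12.75 to 13.25. Without injected replicate 2, 4 stellate cell markers were higher, Col3a1, Col1a2, Acta2 and Pdgfrb, and with array weights 3. Of 6 cholangiocyte markers 0 passed, with Epcam at 0.58 ± 0.19 (limma adjusted p = 0.056), and levels of 8.48 to 8.59 and 8.33 to 8.98. Without injected replicate 2, 3 of them passed as higher, Epcam, Prom1 and Sox9. Of 11 lymphoid markers 1 was higher, Ptprc, with 10.08 to 10.21 and 10.28 to 10.49, and of 4 erythroid markers 1 was lower, Alas2, with 10.39 to 10.43 and 8.73 to 9.33. Slc4a1 and Epb42 also passed as lower without injected replicate 2, which made 3, and Slc4a1 did without not-injected replicate 1. Array values have no true zero, so no marker could be called absent. The part of these cells in the differences of the 8 enzymes was not tested.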

How the data were processed

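Livers of 6 mice were measured, 3 per group, described as biological replicates. The authors deposited log2 values per probe set. The submitters' processing notes name RMA and the package affy without versions; the log2 scale is read from the range of the values. Of 22690 probe sets, 64 were controls, 20380 had 1 gene symbol in the platform annotation, 691 several and 1555 none. Each of 12393 genes was represented by its brightest probe set, judged by the mean of the 6 arrays.

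Differences were fitted over all genes with limma (version 3.58.1, R 4.3.3; lmFit, eBayes, two-sided, no covariate, no filter), and probe sets in a fit of their own. The fit was tested on simulated data. Python 3.11.15 and matplotlib 3.10.9 made promoter searches and plots. The members and lists were chosen with earlier results of these data known. Of 205 list entries 177 were measured; the rest are not analysed here. Named were all 8 enzymes, Tfeb, all measured genes of both aromatic lists, called regulators with Hnf4a, Nr3c1, Cebpa and Cebpb, up to 3 called genes with the smallest p of other lists (1 where none was called), up to 4 each way of other amino acid catabolism, and the 3 genes most like Tat. Apob, Cd5l, Marco, Pck1, Arg1, Hsd11b1, Zbtb16, Lpin1, Angptl4, Mertk, Col3a1, Col1a2, Acta2, Pdgfrb, Prom1, Sox9, Slc4a1 and Epb42 were named after their values were seen, to complete short counts. Pecam1, Clec4g, Eng and Dpp4 were named after their values were seen as well. The number of arrays limits the precision.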

Additional observations from a re-analysis of the deposited data

How the results depend on the processing

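The differences of the 8 enzymes kept their sign in all 15 alternatives run for each. Tat and Kmo kept their call in all of them. Without variance moderation 3 enzymes were called (Tat, Kmo and Tdo2), and the adjusted p was 0.0507 for Hgd (-0.24), 0.125 for Gstz1 (-0.38), 0.0848 for Fah (-0.28) and 0.0719 for Haao (-0.96); 1881 genes were called in all, with 0 lower among the other phenylalanine and tyrosine genes, 3 lower and 1 higher among the other tryptophan genes, and 10 lower in other amino acid catabolism. Among the other genes named, the calls of Gch1, Qdpr, Ddc, Ido2, Aadat, Nr1i3, Foxa3, Cebpa, Nr3c1, Foxa2, Aspa, Gpt2, Hsd11b1, Lpin1, Angptl4, Mertk, Apob, Cd5l, Cd68, Marco, Ptprc, Ecm1 and Reln were lost there too. So were those of Pecam1 and Clec4g. With the replicate number as a block 5 enzymes were called, without Hgd (-0.24, adjusted p = 0.0656) and Fah (-0.28, adjusted p = 0.058), with 1 lower phenylalanine and tyrosine gene (Il4i1, while Qdpr and Ddc lost their calls) and 1 higher tryptophan gene, Kynu. The correlations of deviations from the group means were 0.14, 0.06 and 0.01 for equal numbers and -0.16 to 0.08 for unequal ones. Not-injected replicate 2 correlated better with injected replicate 3 (0.08) than with its own number. These values do not settle whether the numbers pair the arrays. Other calls of the 8 enzymes did not change with the block. Testing every probe set gave 5302 calls and 1 lower phenylalanine and tyrosine gene (Qdpr, without Ddc). When genes under the median level were left out, 2 tryptophan genes were lower and 1 higher. Afmid, Ido2 and Tph1 were under that level and were not tested there. With array weights, which gave injected replicate 2 the lowest weight (0.396), 1 tryptophan gene was higher.

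Leaving out 1 array at a time, between 1973 and 4378 genes and 3 to 8 of the enzymes were called. The differences ran from -0.28 to -0.21 for Hgd, -0.50 to -0.31 for Gstz1, -0.35 to -0.23 for Fah, -0.31 to -0.27 for Tdo2, and -0.26 to -0.069 for Hpd. Lower genes numbered 0 to 2 among the other phenylalanine and tyrosine genes and 12 to 24 in other amino acid catabolism, where 1 to 3 were higher; 0 to 1 of the other tryptophan genes were higher. The cause of these changes was not tested.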
